A study of Mus musculus with 18 samples.

Results

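The TRAF adaptors, the cIAPs and the kinase NIK were followed as 9 genes, namely Traf1, Traf2, Traf3, Traf4, Traf5, Traf6, Birc2 (which encodes cIAP1), Birc3 (cIAP2) and Map3k14 (NIK). They were chosen by name as proteins that act directly beneath CD40 and the BAFF receptor, and their symbols were matched through the annotation to 9 of the 51912 gene identifiers in the table. TRAF proteins bind the cytoplasmic tails of TNF receptor family members, including CD40, which receives T cell help, and the BAFF receptor, which sustains mature B cells. In resting cells TRAF3 holds NIK in a complex with TRAF2 and the cIAPs, whose ubiquitin ligase activity keeps NIK protein scarce. Receptor engagement diverts that complex so that TRAF3 is degraded, NIK accumulates and the non-canonical NF-κB pathway opens, while TRAF2 and TRAF6 also feed the canonical pathway. Much of this control is exerted on the proteins, and the data here are levels of polyA RNA.

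RNA was sequenced from B cells of C57BL/6 mice with either WT Sh3gl1 or deletion of Sh3gl1 (Sh3gl1-/-), the gene of the endocytic protein endophilin A2. In both genotypes the cells were transitional B cells (recent emigrants from the bone marrow) ex vivo, follicular B cells (the mature recirculating population) ex vivo, or follicular B cells after 14 h with CD40L, the ligand of CD40. Each of the 6 groups had 3 libraries, giving 18 libraries with 12404693 to 18366045 counts each. The knockout is carried in every cell of the mouse, the ex vivo cells were untreated, and the sources used here give neither the age of the mice behind these libraries nor a group cultured without CD40L, so the effects of CD40L and of culture cannot be told apart. The methods describe the culture as overnight, and legends to these data give a longer time than the labels, so the printed time is uncertain.

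The labels were checked before the members were read. Sh3gl1 had 377 to 929 counts in WT libraries and 1 to 22 in Sh3gl1-/- libraries. Cd93, which marks transitional cells, was at 9.9 to 15.6 TPM in the 6 transitional libraries and 2.14 to 4.58 TPM in the 6 follicular ex vivo libraries. Cd24a, the other transitional marker, separated the states less well. It was at 221 to 282 TPM in WT and 107 to 171 TPM in Sh3gl1-/- transitional libraries, the latter overlapping the 120 to 147 TPM of WT follicular libraries, and at 76.3 to 77.5 TPM in Sh3gl1-/- follicular libraries. Between genotypes it was called lower in Sh3gl1-/- transitional cells, with a log2 difference of -0.87 (SE 0.15, edgeR adjusted p = 0.026). It was also called lower in Sh3gl1-/- follicular cells ex vivo, with -0.75 (SE 0.09, edgeR adjusted p = 0.0040). The B cell markers Cd79a, Cd79b, Ms4a1 and Pax5 summed to at least 4332 TPM in every library. Fcer2a, which encodes the B cell surface receptor CD23, was at 456 to 2552 TPM across the 18 libraries. Transcripts of other cells were present too. The summed level of 6 T cell genes was 38.5 to 91.4 TPM in transitional, 56.3 to 145 TPM in follicular and 7.58 to 18.3 TPM in cultured libraries. Erythroid genes summed to 1689 to 10825 TPM ex vivo and 5.7 to 427 TPM after culture, neutrophil genes to 101 to 1506 TPM ex vivo and 15.2 to 329 TPM after culture, and macrophage and monocyte genes to 162 to 352 TPM in transitional libraries against 18.2 to 42.9 TPM in follicular ex vivo and 11 to 27.5 TPM in cultured ones. Among these lists a single gene, C1qa, was listed at 0 throughout a group, the WT cultured libraries. In bulk RNA of this kind, fewer cells of a type and less RNA per cell cannot be told apart.

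The members lie on 5 chromosomes of GRCm38. Traf1 occupies chromosome 2 from 34941750 to 34961772, Traf2 chromosome 2 from 25517982 to 25546940 and Traf6 chromosome 2 from 101678429 to 101701669. Traf3 occupies chromosome 12 from 111166370 to 111267153, Traf4 chromosome 11 from 78158499 to 78165589, Map3k14 chromosome 11 from 103219762 to 103267472 and Traf5 chromosome 1 from 191997205 to 192092559. Birc2, at 7818227 to 7837064, and Birc3, at 7848699 to 7873186, are neighbours on chromosome 9 with 11635 bp between them. Within Traf5 lie the pseudogene Gstp-ps on the same strand, over 631 bp and with 37 to 305 counts of its own, and the antisense gene Gm26879, so a part of the reads assigned to Traf5 is uncertain. Map3k14 holds 1700028N14Rik on its own strand, with 15 to 60 counts, and the other strand of Traf3 carries 4930595D18Rik, with 1 to 13 counts.

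The promoters of Traf1 and Traf5 are shown because these were the members that rose and fell furthest with CD40L, and that of Traf3 because it alone held a match to the NF-κB consensus. Each is the 250 bases before the gene start in RefSeq on GRCm38.p6, written on the strand of the gene, and capitals mark the match.
Traf1, chr2:34961773-34962022, minus strand: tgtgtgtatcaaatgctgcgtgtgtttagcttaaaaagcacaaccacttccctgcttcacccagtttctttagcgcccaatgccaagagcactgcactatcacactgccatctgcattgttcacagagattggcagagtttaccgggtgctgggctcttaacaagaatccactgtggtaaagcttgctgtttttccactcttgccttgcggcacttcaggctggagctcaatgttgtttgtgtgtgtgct
Traf3, chr12:111166120-111166369, plus strand: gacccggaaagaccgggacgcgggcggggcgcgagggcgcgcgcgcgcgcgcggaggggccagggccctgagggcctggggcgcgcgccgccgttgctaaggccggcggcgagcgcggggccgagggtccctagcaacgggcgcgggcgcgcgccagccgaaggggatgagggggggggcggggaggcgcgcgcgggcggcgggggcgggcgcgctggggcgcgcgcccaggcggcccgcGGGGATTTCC
Traf5, chr1:192092600-192092849, minus strand: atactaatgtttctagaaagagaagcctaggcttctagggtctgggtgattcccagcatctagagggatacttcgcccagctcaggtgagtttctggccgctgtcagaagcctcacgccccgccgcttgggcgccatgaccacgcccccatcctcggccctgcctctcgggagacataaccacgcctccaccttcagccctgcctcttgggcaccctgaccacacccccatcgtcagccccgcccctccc
The consensus was searched on both strands as 10 bases with 1 position left to a purine, 2 to pyrimidines and 2 to any base. It was present in 1 of the 10 RefSeq promoters of the 9 members, that of Traf3, where GGGGATTTCC covers bases 10 to 1 before the start. Across all 32851 promoters of the same length, 7.25% held a match. The absence of a match says only that these letters are not in this window. G and C made up 48.0% of the Traf1 window, 62.0% of the Traf5 window and 85.2% of the Traf3 window, against a median of 52.4% over all promoters, and the windows held 4, 12 and 49 CG dinucleotides respectively.

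Per unit of transcript length, Birc3 was the most abundant of the 9 in resting follicular cells and Traf4 the least. In WT follicular cells ex vivo the authors' TPM values averaged 230 ± 7.37 (SD, n = 3) for Birc3, 94.2 ± 2.09 for Traf5, 50.1 ± 3.33 for Traf2, 33.8 ± 3.09 for Birc2 and 28.8 ± 7.37 for Traf1. Map3k14 followed at 11.97 ± 2.21, Traf6 at 6.98 ± 0.575, Traf3 at 6.49 ± 0.724 and Traf4 at 3.97 ± 1.14 TPM. In this order the neighbours Birc2 and Traf1 had overlapping libraries, as did Traf6 and Traf3. In WT cultured cells Traf2 and Birc2, at 70.2 ± 13.2 and 56.2 ± 13.8 TPM, overlapped. After CD40L the order began with Traf1, at 392 ± 24.9 TPM in WT and 352 ± 56.5 TPM in Sh3gl1-/- cells, ahead of Birc3 at 264.5 ± 35.0 and 240 ± 16.5 TPM. Traf3, Traf6 and Map3k14, which took ranks 6 to 8 in both cultured groups, overlapped their neighbours within that stretch. In transitional WT cells the order was again led by Birc3 at 252 ± 6.92 TPM and Traf5 at 86.3 ± 5.60 TPM, with Traf1 sixth at 11.1 ± 0.793 TPM, overlapping Map3k14 at 12.4 ± 1.58 TPM.

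The make-up of the TRAF transcripts differed between cell states, as the stacked shares by library show. Of the summed TPM of Traf1 to Traf6, Traf1 held 6.30% ± 0.572 (SD, n = 3) in WT transitional, 15.01% ± 3.02 in WT follicular and 77.8% ± 2.80 in WT cultured cells. The Sh3gl1-/- values were 9.58% ± 1.83, 16.6% ± 1.09 and 75.5% ± 0.528. Traf5 held the largest share of the 6 ex vivo, from 43.5% to 51.8% in the 12 libraries, and 4.07% to 5.90% in the 6 cultured libraries. The sum itself was 191 ± 9.96 TPM in WT follicular and 503 ± 32.5 TPM in WT cultured cells. TRAF1 forms mixed complexes with TRAF2, and the ratio of Traf1 to Traf2 in TPM stood at 0.571 ± 0.110 in WT follicular and 5.71 ± 1.05 in WT cultured cells. For NIK and the adaptor that holds it, the ratio of Map3k14 to Traf3 was 1.87 ± 0.437 in WT follicular and 0.821 ± 0.0654 in WT cultured cells. Without Sh3gl1 the same ratio was 1.84 ± 0.236 and 0.704 ± 0.0751, and the ex vivo and cultured libraries did not overlap in either genotype.

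**Figure D1:**
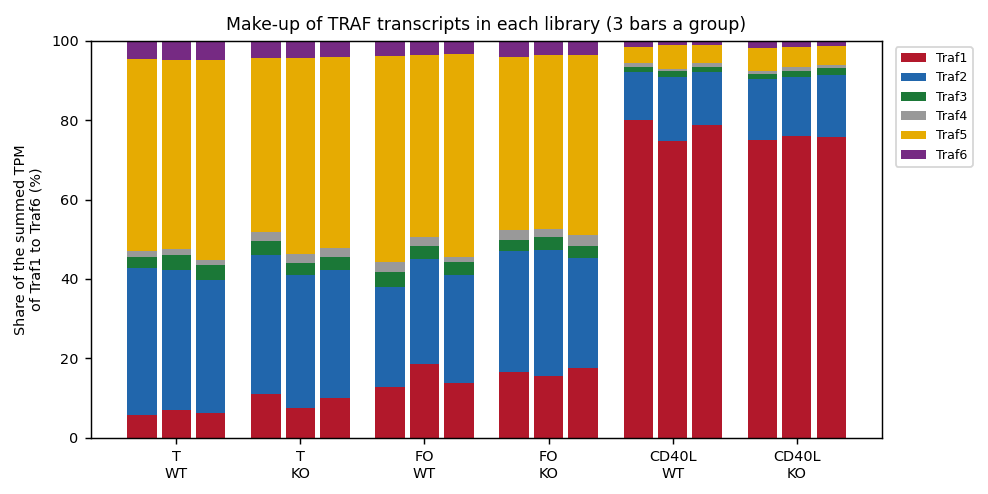
Share of the summed TPM of Traf1 to Traf6 (vertical axis, %) held by each gene in each of the 18 libraries, as stacked bars with 3 bars a group; T is transitional, FO follicular and KO Sh3gl1-/-. Traf1 takes 5.75% to 18.5% of the sum in the 12 ex vivo libraries and 74.7% to 80.1% in the 6 cultured libraries.

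The response to CD40L was asked for each genotype by setting cultured against ex vivo follicular libraries, with edgeR's quasi-likelihood test over 14460 genes. A gene was called at a Benjamini-Hochberg adjusted p under 0.05. In WT cells 6 of the 9 members changed, with Traf1, Birc2, Traf2 and Birc3 higher and Traf5 and Map3k14 lower. Over all genes tested, 23.6% were called higher and 25.7% lower, so a call in itself was common in this comparison. In Sh3gl1-/- cells 3 of the 9 were called, Traf1 higher and Traf5 and Map3k14 lower, where 20.6% of all genes were called higher and 21.7% lower. The median log2 fold change of the 9 was 0.14 in each genotype, beside -0.08 in WT and -0.03 in Sh3gl1-/- over all genes tested.

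Traf1, an adaptor without the ring domain of the other TRAFs and a known NF-κB target, rose furthest. Its TMM-scaled CPM, counts scaled to library size, were 32.5, 46.3 and 31.6 in the WT follicular libraries and 533, 523 and 615 in the WT cultured ones. In Sh3gl1-/- libraries the CPM were 41.3, 39.0 and 37.7 ex vivo and 473, 384 and 551 after culture. All 6 cultured libraries stood above all 6 ex vivo ones. The log2 fold change was 3.89 in WT (SE 0.17, edgeR adjusted p = 1.5e-09), a 14.8-fold rise, and 3.56 in Sh3gl1-/- cells (SE 0.17, edgeR adjusted p = 3.0e-09), an 11.8-fold rise.

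Traf5, which can associate with TRAF3 and binds several TNF receptors of lymphocytes, fell furthest. The WT follicular libraries had 118, 104 and 113 CPM and the WT cultured libraries 26.1, 35.4 and 28.2 CPM. The Sh3gl1-/- libraries had 98.5, 99.6 and 98.9 CPM ex vivo and 34.3, 24.1 and 31.2 CPM after culture. No cultured library reached the lowest ex vivo library in either genotype. The log2 fold change was -1.93 in WT (SE 0.14, edgeR adjusted p = 1.3e-07), 3.802-fold lower, and -1.75 in Sh3gl1-/- cells (SE 0.14, edgeR adjusted p = 4.0e-07), 3.36-fold lower. Each of the 6 T cell markers also fell in both genotypes, with median log2 fold changes of -2.86 in WT and -2.96 in Sh3gl1-/- cells, as did the 4 erythroid markers and 5 of the 6 neutrophil markers. Of the 5 macrophage and monocyte markers, 3 fell in WT and 4 in Sh3gl1-/- cells, and 1, Adgre1, rose in both. Markers of B cells themselves fell too, 3 of 5 in WT and 2 of 5 in Sh3gl1-/- cells, and 0 rose. Cd79b had log2 fold changes of -1.04 in WT and -1.12 in Sh3gl1-/- cells, and Cd24a of -1.89 and -2.06. Of the 3 mature follicular markers, 2 fell and 1 rose in each genotype. The part of these markers in the Traf5 result was not tested.

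Map3k14, the gene of NIK, fell as well. WT libraries had 27.9, 38.2 and 33.9 CPM ex vivo against 18.6, 21.0 and 15.6 CPM after CD40L. The Sh3gl1-/- values were 28.1, 31.7 and 27.0 CPM ex vivo and 13.6, 14.9 and 23.3 CPM after CD40L, so cultured and ex vivo libraries were apart in both genotypes, with Sh3gl1-/- cultured replicate 3 the highest of the cultured 6. The log2 fold change was -0.89 in WT (SE 0.20, edgeR adjusted p = 0.0023) and -0.76 in Sh3gl1-/- cells (SE 0.20, edgeR adjusted p = 0.0080). The part of the markers that fell beside Traf5 was not tested for Map3k14 either.

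Traf2, Birc2 and Birc3, whose products act together in the ubiquitination of NIK, rose in WT cells and did not pass in Sh3gl1-/- cells, a gap that the direct test of the difference did not call. For Traf2, the adaptor that brings the cIAPs to TRAF3, WT libraries had 87.3, 97.9 and 93.5 CPM ex vivo and 120, 166 and 155 CPM after CD40L. The log2 fold change in WT was 0.64 (SE 0.15, edgeR adjusted p = 0.0025). Without Sh3gl1, Traf2 was at 110, 117 and 94.9 CPM ex vivo and at 143, 116 and 164 CPM cultured. These overlapped, since cultured replicate 2 was below ex vivo replicate 2, and the log2 fold change of 0.37 (SE 0.15) did not pass with edgeR adjusted p = 0.053.

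Birc2, a ubiquitin ligase with a ring domain, was at 69.2, 86.3 and 82.6 CPM in WT follicular and at 115, 149 and 171 CPM in WT cultured libraries, a log2 rise of 0.84 (SE 0.17, edgeR adjusted p = 9.1e-04). In Sh3gl1-/- libraries it was at 79.0, 104 and 82.7 CPM ex vivo and 118, 100 and 141 CPM after culture. Cultured replicate 2 again fell within the ex vivo range, and the log2 fold change of 0.42 (SE 0.17) did not pass with edgeR adjusted p = 0.059. Both Sh3gl1-/- values lay at the threshold. Without Sh3gl1-/- cultured replicate 2 they passed, with edgeR adjusted p = 0.013 for Traf2 and 0.024 for Birc2. They also passed without Sh3gl1-/- follicular replicate 2 (0.041 and 0.024), WT follicular replicate 1 (0.046 and 0.043) or 2 (0.048 and 0.04998), or WT cultured replicate 1 (0.027 and 0.031) or 3 (0.049 and 0.041), and Traf2 alone passed without WT cultured replicate 2 (0.046).

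Birc3, the close relative and neighbour of Birc2, was at 324, 355 and 356 CPM in WT follicular and at 401, 473 and 490 CPM in WT cultured libraries. Its log2 rise of 0.37 (SE 0.10, edgeR adjusted p = 0.0067) was the smallest of the called changes. For Sh3gl1-/- cells Birc3 was at 367, 355 and 318 CPM ex vivo and at 372, 386 and 406 CPM cultured, apart by a narrow gap, with a log2 fold change of 0.14 (SE 0.10) and edgeR adjusted p = 0.26.

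Traf3, Traf4 and Traf6 were not called in either genotype. Traf3, which holds NIK, was at 27.8 to 38.6 CPM in the 6 follicular ex vivo libraries and 31.9 to 43.2 CPM in the 6 cultured ones. Its log2 fold change was 0.06 in WT (95% interval -0.29 to 0.41) and 0.29 in Sh3gl1-/- cells (-0.06 to 0.64). Traf6, which links CD40 and Toll-like receptors to the canonical pathway, was at 32.2 to 40.1 CPM ex vivo and 32.5 to 43.7 CPM cultured, with log2 fold changes of 0.01 (95% interval -0.27 to 0.29) and 0.05 (-0.23 to 0.33). Traf4, the member with the lowest counts, was at 5.9 to 11.0 CPM ex vivo and 7.2 to 10.5 CPM cultured. Its intervals were the widest of these, -0.37 to 0.66 in WT and -0.73 to 0.30 in Sh3gl1-/- cells.

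**Figure D2:**
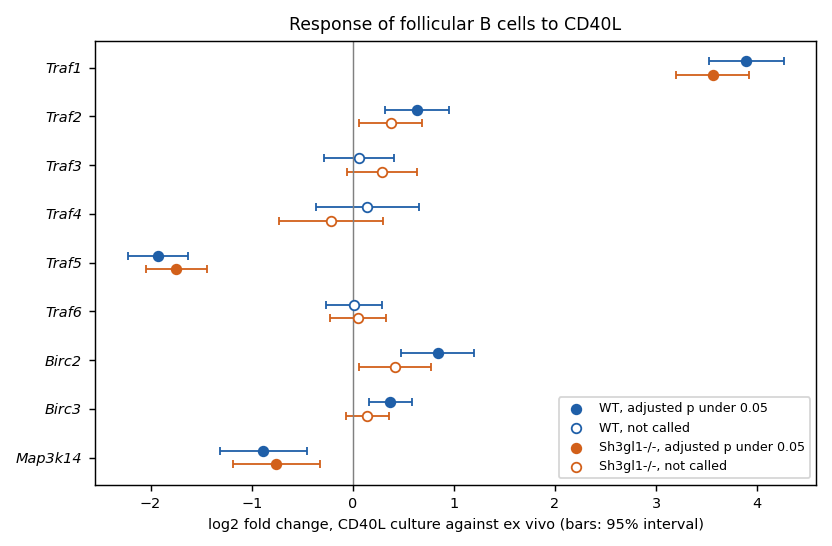
Log2 fold change of each member, follicular cells cultured with CD40L against ex vivo (horizontal axis), in WT (blue) and Sh3gl1-/- cells (orange), with 95% intervals as bars and filled points for an adjusted p under 0.05. Traf1 lies near 3.9 and 3.6, Traf5 and Map3k14 lie below 0 in both genotypes, and the intervals of the genotypes overlap for every member.

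Whether the response differed with the genotype was tested directly as an interaction on the 12 follicular libraries. None of the 9 passed, and 0 of 14460 genes were called (0%). The edgeR unadjusted p was under 0.05 for 0 members and for 1278 genes, and DESeq2 called 0 members and 29 genes. For Traf1 the response in Sh3gl1-/- cells differed from that in WT by -0.33 on the log2 scale (95% interval -0.80 to 0.14), and for Birc2 by -0.42 (-0.93 to 0.08). The differences were -0.26 (-0.71 to 0.18) for Traf2, -0.23 (-0.53 to 0.07) for Birc3, 0.18 (-0.23 to 0.59) for Traf5 and 0.13 (-0.48 to 0.74) for Map3k14. They were 0.23 (-0.26 to 0.72) for Traf3, 0.04 (-0.35 to 0.43) for Traf6 and -0.36 (-1.08 to 0.37) for Traf4. Traf2, Birc2 and Birc3, the 3 members called in WT cells alone, are thus not shown to respond differently.

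**Figure D3:**
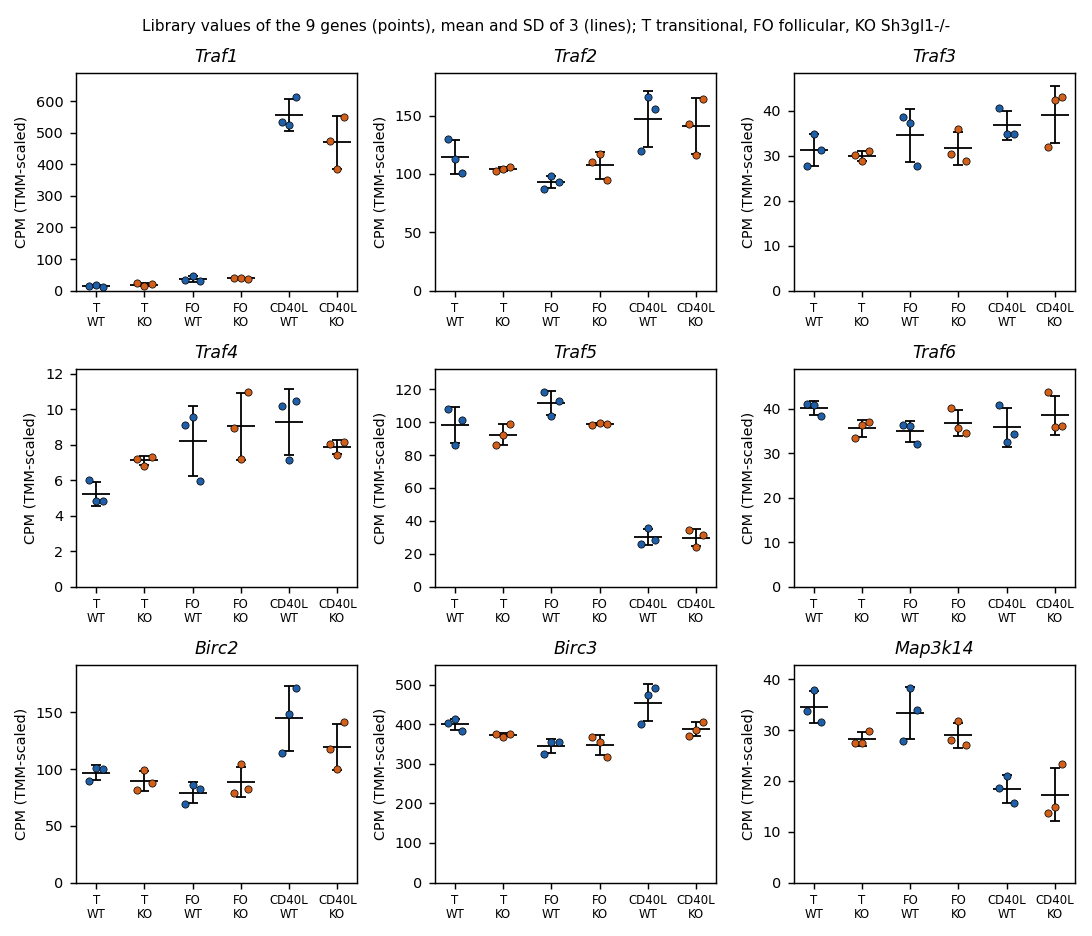
TMM-scaled CPM (vertical axes, from 0, own scale per gene) of the 9 members in the 18 libraries, 3 points a group, with the mean and SD as lines; T is transitional, FO follicular and KO Sh3gl1-/-. Traf1 is at 12.2 to 46.3 CPM ex vivo and 384 to 615 CPM after CD40L, Traf5 and Map3k14 are lowest in the cultured groups, and Traf3 and Traf6 stay between 27.7 and 43.7 CPM in all libraries.

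Within each cell state Sh3gl1-/- was compared with WT, which asks whether the loss of endophilin A2 moves these transcripts. None of the 9 members was called by edgeR in any of the 3 states, where 3.73% of all genes were called in transitional, 0.845% in follicular and 0.0227% in cultured cells. At an unadjusted edgeR p under 0.05 there was 1 member in transitional cells, Map3k14, and 0 in either of the other states. Over all genes the same held for 2994 of 13775 in transitional, 1480 of 13610 in follicular and 930 of 13190 in cultured cells. DESeq2 called 0 members in each state. Its unadjusted p was under 0.05 for Map3k14 in transitional and Traf2 in follicular cells, and for 3037 and 1524 genes respectively. The median log2 difference of the 9 was -0.10, 0.07 and -0.06 in the 3 states, beside 0.02, -0.00 and 0.01 over all genes.

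In transitional cells 4 of the 9 members had genotype groups that did not overlap, where 28% of all genes tested did the same. Traf4 was at 6.0, 4.8 and 4.8 CPM in WT and 7.2, 6.8 and 7.3 CPM in Sh3gl1-/- cells, a log2 difference of 0.45 (SE 0.22, edgeR adjusted p = 0.27). Map3k14 was at 33.8, 37.9 and 31.7 CPM in WT and 27.5, 27.4 and 29.9 CPM in Sh3gl1-/- cells, a log2 difference of -0.29 (SE 0.11, edgeR adjusted p = 0.17). Traf6 had 38.4 to 41.2 CPM in WT and 33.5 to 37.0 CPM in Sh3gl1-/- cells, and Birc3 had 384 to 412 CPM and 369 to 376 CPM. For each of these 4 the two-sided exact permutation test gave p = 0.1, the smallest it can give for 3 libraries against 3. Erythroid markers were higher in the Sh3gl1-/- transitional libraries, with 4 of 4 called and sums of 5367 to 10825 against 2814 to 4867 TPM, and neutrophil and plasma cell markers summed higher too, at 224 to 1053 against 101 to 176 TPM and 974 to 3880 against 380 to 611 TPM. Other markers were lower there without overlap. The sum of Cd79a, Cd79b, Ms4a1 and Pax5 was 7551 to 10372 TPM against 10643 to 12065 TPM in WT, with 0 of these 4 called, and Cd24a was lower as given above. The part of these markers in the differences was not tested.

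In follicular cells ex vivo a single member, Traf5, had groups that did not overlap, at 104 to 118 CPM in WT and 98.5 to 99.6 CPM in Sh3gl1-/- cells, where 16% of all genes tested were so placed. Its log2 difference was -0.17 (SE 0.09, edgeR adjusted p = 0.52). The T cell markers summed to 56.3 to 84.95 TPM in WT and 110 to 145 TPM in Sh3gl1-/- follicular libraries. Macrophage and monocyte and plasma cell sums were also higher there without overlap, while the erythroid and neutrophil sums overlapped. The sum of Cd79a, Cd79b, Ms4a1 and Pax5 was lower without overlap, at 6807 to 7373 TPM against 7977 to 8270 TPM in WT. None of these 4 was called, and Cd24a was lower as given above. The part of these markers in the Traf5 value was not tested. In cultured cells 0 of the 9 members were apart, against 13.8% of all genes. There Traf1 was at 523 to 615 CPM in WT and 384 to 551 CPM in Sh3gl1-/- cells (95% interval of the log2 difference -0.54 to 0.10), and Birc3 at 401 to 490 and 372 to 406 CPM (-0.46 to 0.07). T cell markers summed to 7.58 to 11.45 TPM in WT and 14.6 to 18.3 TPM in Sh3gl1-/- cultured libraries, and neutrophil markers to 15.2 to 74.9 and 92.0 to 329 TPM. Cd24a was at 21.8 to 38.5 and 16.6 to 20.4 TPM and was not called. The erythroid, macrophage and monocyte, plasma cell and 4-gene B cell sums overlapped. The part of these markers in the cultured values was not tested.

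**Figure D4:**
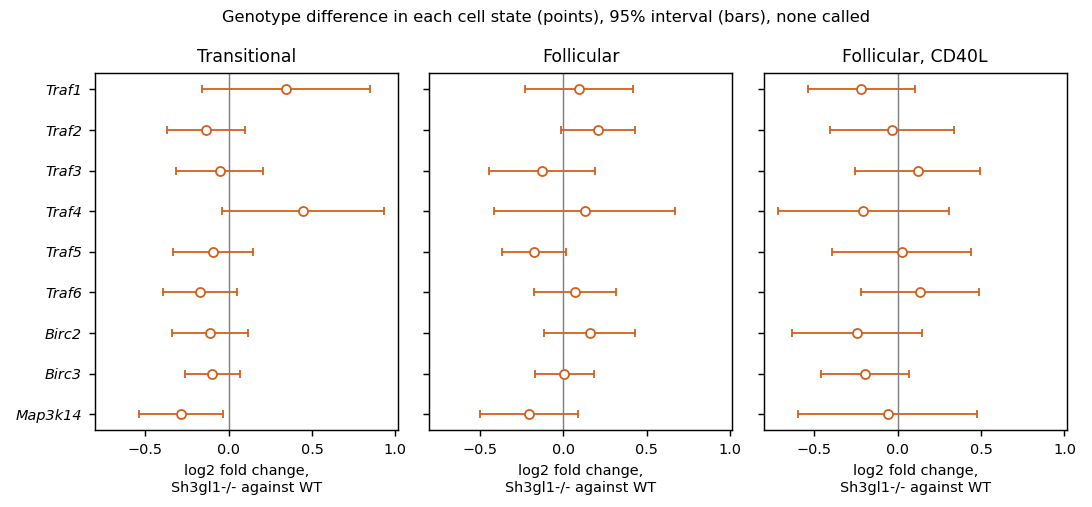
Log2 fold change of Sh3gl1-/- against WT (horizontal axes) for the 9 members in transitional, follicular and CD40L-cultured follicular cells, with 95% intervals as bars; open points were not called. The interval leaves out 0 for a single value, that of Map3k14 in transitional cells (-0.54 to -0.04), and its adjusted p is 0.17.

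Transitional and follicular cells ex vivo were compared next, in a fit whose follicular libraries also serve in the CD40L comparison. In WT cells 3 of the 9 members passed, with Traf2 higher and Traf1 and Traf4 lower in transitional cells, where 14.2% of all genes were higher and 11.7% lower. In Sh3gl1-/- cells 1 passed, Traf1, where 6.72% of all genes were higher and 3.71% lower. Traf1 was at 15.03, 18.3 and 12.2 CPM in WT transitional libraries, all below the 31.6 to 46.3 CPM of WT follicular libraries, and at 23.1, 13.5 and 21.3 CPM in Sh3gl1-/- transitional libraries, all below the 37.7 to 41.3 CPM of their follicular counterparts. The log2 fold change was -1.28 in WT (SE 0.21, edgeR adjusted p = 5.9e-04) and -1.02 in Sh3gl1-/- cells (SE 0.20, edgeR adjusted p = 0.0048). Traf1 thus stood lowest in transitional cells, higher in follicular cells and highest after CD40L in both genotypes.

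The calls of Traf2 and Traf4 were at the edge of the threshold. WT transitional libraries had 130, 113 and 101 CPM of Traf2 against 87.3 to 97.9 CPM in WT follicular libraries, a log2 fold change of 0.30 (SE 0.10, edgeR adjusted p = 0.047). Traf4 was at 6.0, 4.8 and 4.8 CPM against 9.1, 9.6 and 5.9 CPM, so that the groups overlapped through WT follicular replicate 3, and its log2 fold change was -0.66 (SE 0.23, edgeR adjusted p = 0.047). When 1 of the 12 libraries was left out in turn, Traf2 passed in 3 of the 12 fits, those without WT transitional replicate 3 or Sh3gl1-/- follicular replicate 2 or 3. Traf4 passed in 4, those without WT transitional replicate 1, WT follicular replicate 3 or Sh3gl1-/- follicular replicate 2 or 3. Over the 12 fits the edgeR adjusted p ranged up to 0.18 for Traf2 and 0.15 for Traf4.

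The cIAP genes were near the threshold as well. Birc3 was at 384 to 412 CPM in WT transitional and 324 to 356 CPM in WT follicular libraries (log2 fold change 0.21, SE 0.07, edgeR adjusted p = 0.051), and Birc2 at 89.1 to 101 and 69.2 to 86.3 CPM (0.28, SE 0.12, edgeR adjusted p = 0.11). Same-numbered libraries of these states deviated together within each genotype, and with a block for the replicate number within genotype, chosen after seeing the data, 5 of the 9 passed in WT. These were Birc2 (edgeR adjusted p = 0.016) and Birc3 (0.044) beside Traf1, Traf2 and Traf4. With an additive block shared by the genotypes Birc2 also passed (0.024) and Traf4 did not (0.058). In Sh3gl1-/- cells Birc3 was at 369 to 376 CPM in transitional and 318 to 367 CPM in follicular libraries, with a log2 fold change of 0.12 (95% interval -0.04 to 0.27), and the values of Traf2 overlapped, with -0.03 (-0.25 to 0.19). None of the 9 was called by edgeR for a difference between genotypes in this step, where 0.0686% of all genes were. At an unadjusted p under 0.05 there was 1 member by edgeR and 1 by DESeq2, in both cases Traf2, and DESeq2 called 0 members. Over all genes the same held for 1992 of 14580 by edgeR and for 2177 by DESeq2. The difference of Traf2 was -0.33 (95% interval -0.64 to -0.02, edgeR adjusted p = 0.34). The 5 macrophage and monocyte markers were called higher in transitional cells of both genotypes, and their part in the Traf1 value was not tested. Of the 5 B cell markers, 4 were called higher in WT transitional cells and 2 in Sh3gl1-/- ones. Their part in the Traf2, Birc2 and Birc3 values was not tested either.

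Genes around the members were read from 5 lists of 53 genes in all. The counts with CD40L stand beside 23.6% of all genes called higher and 25.7% lower in WT, and 20.6% and 21.7% in Sh3gl1-/- cells, and are given as a description. With CD40L, 6 of the 10 genes of NF-κB subunits and their inhibitors rose in each genotype and 1 fell in WT. Among those called in both, Nfkbia, an inhibitor and NF-κB target, had a log2 fold change of 1.97 in WT (SE 0.21) and of 2.59 without Sh3gl1 (SE 0.22). That of Nfkbie was 1.77 and 1.86, and that of Nfkb2, whose product is processed downstream of NIK, 1.45 and 1.41. Of the 11 ubiquitin genes, 3 rose and 0 fell in each genotype. Tnfaip3, which encodes the deubiquitinase A20, went from 15.3 to 23.3 CPM in WT follicular libraries to 183 to 310 CPM in cultured ones, a log2 rise of 3.69 (SE 0.23, edgeR adjusted p = 3.8e-08), and by 3.32 (SE 0.23) in Sh3gl1-/- cells. Ube2n, the ubiquitin-conjugating enzyme that works with TRAF6, rose by 0.96 and 0.60.

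Of the 11 kinases, 1 rose and 3 fell in WT, and 1 rose and 4 fell in Sh3gl1-/- cells, beside the shares over all genes given above. Ikbke was the one that rose, by 2.24 (SE 0.19) and 1.40 (SE 0.19) on the log2 scale. Map3k1, which encodes MEKK1 and acts beneath TRAF2 at CD40, had log2 fold changes of -1.43 and -1.07, and Chuk, the gene of the IKKα kinase that NIK activates, -0.70 and -0.61. Among the 9 genes of TRAF-binding and TRAF-related proteins, 3 rose and 3 fell in WT, and 2 rose and 2 fell in Sh3gl1-/- cells. Tank rose by 0.96 and 0.67, while Traf3ip3 fell, with -1.37 and -1.49, as did Tifa, whose product engages TRAF6, with -0.62 and -0.48. Of 10 receptors tested, 1 rose and 3 fell in WT, and 1 rose and 4 fell in Sh3gl1-/- cells. Cd40 itself rose, from 159 to 181 CPM to 392 to 488 CPM in WT (log2 1.31, SE 0.11, edgeR adjusted p = 3.8e-07) and by 1.11 in Sh3gl1-/- cells. Cd27, a receptor that T cells also express, fell, with -2.36 and -1.91, as did Tnfrsf4, with -1.49 and -1.64. The T cell markers fell in both genotypes as well, and their part in the Cd27 and Tnfrsf4 values was not tested.

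**Figure D5:**
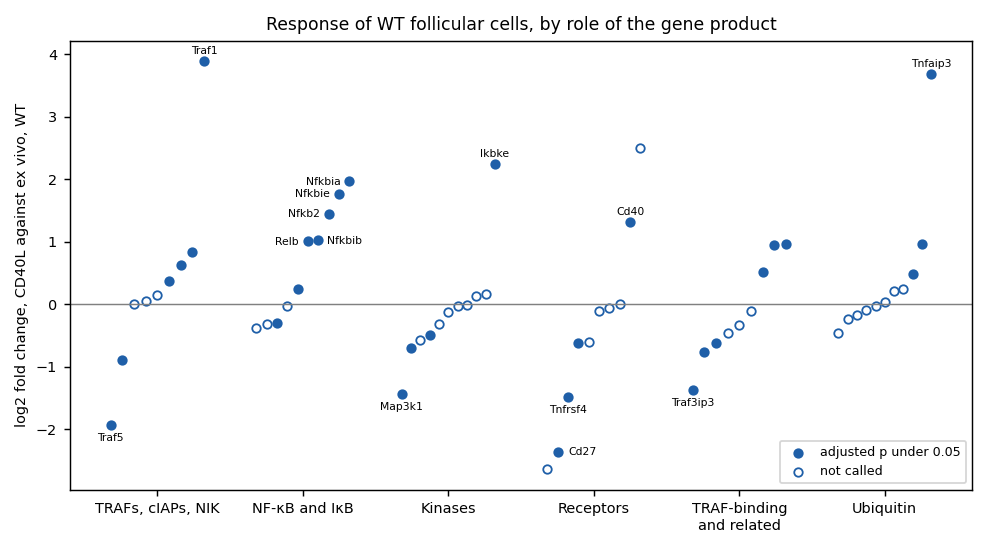
Log2 fold change with CD40L in WT follicular cells (vertical axis) for the 9 members and for the genes of the 5 surrounding lists, ordered within each list, with filled points for an adjusted p under 0.05 and names for called changes beyond 1. Traf1 at 3.89 and Tnfaip3 at 3.69 are the highest called values, and Cd27 at -2.36 is the lowest.

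Between genotypes, 3 of the 53 genes in the lists were called, given as a description. In transitional cells these were 1 of 10 receptors and 1 of 9 TRAF-binding genes tested, where 3.73% of all genes were called. In follicular cells it was 1 of 9 receptors, where 0.845% of all genes were called. The kinase, ubiquitin and NF-κB lists held 0 called genes in either state. In transitional cells Tnfrsf13c, which encodes the BAFF receptor, had 971, 887 and 851 CPM in WT and 502, 649 and 509 CPM in Sh3gl1-/- libraries, a log2 difference of -0.71 (SE 0.11, edgeR adjusted p = 0.018). Traf3ip3, whose product binds TRAF3, had 392, 381 and 338 CPM in WT and 252, 264 and 261 CPM in Sh3gl1-/- libraries (-0.51, SE 0.08, edgeR adjusted p = 0.020). Both stood beside the lower sums of B cell markers and Cd24a and the higher erythroid, neutrophil and plasma cell sums of these libraries, and the part of those markers was not tested. In follicular cells Cd27 was at 11.2, 11.6 and 11.1 CPM in WT and 21.9, 17.2 and 19.5 CPM in Sh3gl1-/- libraries (0.78, SE 0.15, edgeR adjusted p = 0.047), and 2 of the 6 T cell markers were called higher beside it. Those markers' part in the Cd27 value was not tested.

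Between transitional and follicular WT cells, 3 of 11 receptors, 1 of 11 kinases, 1 of 11 ubiquitin genes and 3 of 9 TRAF-binding genes were higher in transitional cells, and 1 kinase and 2 of 10 NF-κB genes lower, where 14.2% of all genes were higher and 11.7% lower. The Sh3gl1-/- counts were 2 receptors and 1 TRAF-binding gene higher, and 1 receptor and 1 kinase lower, where 6.72% of all genes were higher and 3.71% lower. Tifa was at 154 to 172 CPM in WT transitional and 49.0 to 60.9 CPM in WT follicular libraries, with a log2 fold change of 1.61 in WT (SE 0.13) and 1.23 without Sh3gl1 (SE 0.13). Tnfrsf13b, the gene of the BAFF and APRIL receptor TACI, was higher by 0.47 and 0.64. Tnfrsf17, which encodes BCMA and marks plasma cells, had 5 to 21 counts in WT transitional libraries and 0 in WT follicular ones, and 11 to 72 against 0 to 2 counts in Sh3gl1-/- libraries. Plasma cell markers summed to 380 to 3880 TPM in transitional and 40.9 to 122 TPM in follicular libraries, and their part in this value was not tested.

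For each member the 3 genes of most similar course were found by Pearson's r of log2 CPM over the 18 libraries, among 15117 genes. These libraries fall into cultured and ex vivo sets, so r mostly reflects that division, and it is given as a description. The pattern of Traf1 was closest to Marcksl1 (r = 0.991), Bcl2a1b (0.990) and Bcl2a1d (0.989), of which the Bcl2a1 genes are near-identical copies whose reads may be shared. That of Traf5 was closest to Stk17b (0.991), Ripor2 (0.988) and Add3 (0.987), and that of Map3k14 to Tbc1d10c (0.955), Arhgap4 (0.947) and Ighv1-82 (0.943). Traf2 was closest to Tnpo3 (0.962), with Tars2 (0.947) also among its 3, Birc2 to Stt3a (0.962), Prpf31 (0.959) and Rtcb (0.957), and Birc3 to Pes1 (0.935), Cndp2 (0.930) and Ssrp1 (0.913). The 3 members that were not called with CD40L had looser company. Traf3 was closest to Extl3 (0.873), Gm16158 (0.851) and Zbtb32 (0.804), Traf4 to Macrod1 (0.860), Trim27 (0.831) and Aven (0.820), and Traf6 to Zbtb1 (0.734), Synj1 (0.681) and Gm2810 (0.633).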

How the data were processed

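RNA of 18 libraries was analysed, 3 in each of 6 groups of genotype and cell state, as the labels give them. All 54 columns of values matched 1 library each, and 0 were left out. The deposited expected counts were made by the authors with RSEM 1.3.0 after cutadapt 1.9.1 and STAR 2.5.2a on GRCm38, per the submitters' processing notes. The methods name TopHat and Cufflinks with SMART-Seq HT and NexteraXT libraries, while the labels name a stranded KAPA kit, and whether counting used strand is not given in the sources used here. The deposited TPM are the authors' length-scaled shares of a library and served for levels between genes. The deposited FPKM, also the authors', were the alternative unit.

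Expected counts were rounded and tested with edgeR 4.0.16 and limma 3.58.1 in R 4.3.3, using TMM, filterByExpr by group and glmQLFit, with p-values adjusted over all genes tested and called under 0.05. The standard error was the log2 fold change divided by the square root of F, and 95% intervals used the fit's t distribution. CPM are TMM-scaled. The CD40L response used the 12 follicular libraries, the transitional step the 12 ex vivo libraries, and genotypes were compared within each state. Depth put 3 counts, the limit that a count of 0 allows, at 0.163 to 0.242 CPM, counting error only. Same-group libraries differed beyond sampling noise (chi-square per degree of freedom 9.88 to 52.4), and p-values measure the spread between these libraries. The tests were tried on simulated data with known changes. For genotype in follicular cells, edgeR recovered 63 of 100 log2 changes of size 1 and 96 of 100 of size 2. For the difference in CD40L response it recovered 16 and 87 of 100, and DESeq2 17 and 83. The test of that difference thus misses most changes of log2 size 1 in such data.

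All 9 members are named in every comparison. From the lists, up to 3 genes of largest change among those called in both genotypes are named per list, and each gene called between genotypes. For the genes most alike, 1 value of Traf2 is not reported here. The members and lists were chosen with earlier results of these data known. The alternatives were RLE scaling, DESeq2 1.42.0, no filter, a filter at 1 CPM, a replicate block, all 18 libraries in 1 fit, and leaving out each library. Whether a replicate number marks 1 mouse is not given. Deviations of same-numbered libraries correlated over genes at 0.103 to 0.242 between transitional and follicular WT cells, 0.114 to 0.263 in Sh3gl1-/- cells and 0.136 to 0.224 between follicular and cultured WT cells, so these were taken as paired. For follicular and cultured Sh3gl1-/- cells r was 0.030 to 0.119 in same-numbered pairs and -0.094 to 0.0031 in differently numbered ones. The same-numbered values were thus the higher ones there too, and the pairing of these libraries is uncertain. Across genotypes r of same-numbered libraries was -0.087 to 0.101, and these were not taken as paired. The main fits held no replicate block, so their standard errors, intervals and p-values treat all libraries as unpaired. Pairing entered only through the replicate blocks run as alternatives.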

Additional observations from a re-analysis of the deposited data

How the results depend on the processing

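The 6 calls of the CD40L response in WT cells, the 3 in Sh3gl1-/- cells and both Traf1 calls between transitional and follicular cells held under every alternative run. The number of members called in the Sh3gl1-/- response was 5, in place of 3, with DESeq2, without a filter, with the stricter filter and with all 18 libraries in 1 fit, and 3 to 5 when 1 library was left out. Between transitional and follicular WT cells it was 1 without a filter, 5 with the replicate block within genotype, and 1 to 4 when 1 library was left out. Among the WT values of that step, Traf4 did not pass with RLE scaling (adjusted p = 0.053) or no filter (0.080), nor Traf2 with no filter (0.055) or all 18 libraries (0.13), and Birc3 passed with RLE scaling (0.040), DESeq2 (0.014), the stricter filter (0.049) and without Sh3gl1-/- follicular replicate 3 (0.041). In the Sh3gl1-/- response, where the pairing of libraries is uncertain, Birc2 passed with the additive replicate block (edgeR adjusted p = 0.038) and with the block within genotype (0.046). The replicate block changed no other call than those given here and above.

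Changes of sign occurred only among log2 fold changes that were not called, given here as ranges over fits that left out 1 library. For the CD40L response in WT cells these were Traf3 -0.074 to 0.15, Traf4 -0.041 to 0.30 and Traf6 -0.10 to 0.081. For the response in Sh3gl1-/- cells this was Traf6 -0.034 to 0.13. For the difference in response these were Traf6 -0.045 to 0.17 and Map3k14 -0.15 to 0.28. For genotype in transitional cells this was Traf3 -0.13 to 0.029. For genotype in follicular cells these were Birc3 -0.036 to 0.063, Traf1 -0.0048 to 0.30 and Traf4 -0.056 to 0.27. For genotype in cultured cells these were Traf5 -0.091 to 0.16, Traf2 -0.18 to 0.081 and Map3k14 -0.34 to 0.079. For transitional against follicular cells in WT this was Map3k14 -0.073 to 0.15. For the same step in Sh3gl1-/- cells these were Traf6 -0.082 to 0.031, Birc2 -0.057 to 0.15, Traf2 -0.12 to 0.026, Traf3 -0.13 to 0.021 and Map3k14 -0.076 to 0.037. For its difference between genotypes this was Map3k14 -0.18 to 0.048. With all 18 libraries in 1 fit, Traf5 between genotypes in cultured cells was -0.0025.

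Counts over all genes moved more. DESeq2 and no filter gave 29 and 208 calls in place of 0 for the difference in CD40L response, 1271 and 1415 in place of 514 for genotype in transitional, 345 and 602 in place of 115 in follicular and 75 and 216 in place of 3 in cultured cells, and 340 and 453 in place of 10 for the difference in the transitional step. The additive replicate block gave 90, 212, 21 and 20 for the last 4, the block within genotype 99 for the last, and all 18 libraries 144, 49, 82 and 0. Leaving out 1 library gave 28 to 479 (lowest without Sh3gl1-/- transitional replicate 3), 32 to 112 (without Sh3gl1-/- follicular replicate 1), 1 to 9 (without Sh3gl1-/- cultured replicate 1 or 3) and 0 to 23. It gave as few as 2444 in place of 3772 for the step in WT cells (without WT follicular replicate 1) and 985 in place of 1521 in Sh3gl1-/- cells (without Sh3gl1-/- follicular replicate 3). The cause was not tested. Depth limits Traf4 most, which had the fewest counts of the 9.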
